A study of Mus musculus with 13 samples.

Results

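Cdkn1a, the gene for the cyclin-dependent kinase inhibitor p21, was examined with Trp53, the gene for the tumour suppressor p53, and 8 genes known as p53 targets (Mdm2, Ccng1, Trp53inp1, Phlda3, Bax, Sesn1, Btg2 and Gdf15). These 10 genes were chosen with the difference between the diets in the same libraries already known. Their levels under the diets are therefore described below with no test of any single one, and the count that passed in the fit over all genes is given once, beside that for all genes. Rows were found by gene symbol, and 9 of the 10 were among the 11761 listed genes. Gdf15 was not among the rows used here.

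The libraries came from epididymal white fat of Adipoq-NuTRAP mice on the C57BL/6J background. In these animals a GFP tag on ribosomes and an mCherry tag on nuclei are switched on by the adiponectin promoter, so the purification aims at adipocytes but depends on that promoter and on how cleanly the tagged ribosomes are recovered. All groups carried this transgene, and the ages and sex of the animals were not given in the sources used here. One group was kept on chow and the other received a high-fat diet (HFD), each for 10 weeks. RNA bound to tagged ribosomes was pulled down through the GFP tag, a method called TRAP (translating ribosome affinity purification), and sequenced in 3 libraries per diet. The series also holds 5 samples for the histone mark H3K27ac and 2 for the nuclear receptor PPARG, which were not analysed here.

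As background, p53 is a transcription factor that is held at a low level by the ubiquitin ligase MDM2 and is stabilised when DNA damage or other stress interrupts that control. It binds a paired sequence element near its target genes, and the products of those genes halt the cell cycle, repair DNA, adjust metabolism, lower p53 again, or start apoptosis. In adipose tissue the pathway is known for its part in the response to obesity and in cellular senescence. Because p53 is controlled largely at the protein level, the amount of Trp53 RNA is a poor measure of p53 activity, and RNA data do not measure p53 protein.

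Effective library size, read from the spacing of the lowest values, was 7430000 to 32440000 reads in chow and 31970000 to 39410000 reads in HFD. Chow library 3 was the shallowest, and 117 genes sat at the lowest value of the table there against 0 to 7 in the other libraries. All 8 adipocyte markers were listed, with a summed level of 17692 to 28788 CPM (read counts scaled by library size) in chow and 14812 to 16216 CPM in HFD. Markers of other cells were present as well and were higher in HFD for several types. All 10 macrophage markers were listed, none was at 0 in any library, and they summed to 73.4 to 94.6 CPM in chow and 267 to 440 CPM in HFD. The 7 endothelial markers summed to 23.1 to 60.7 CPM in chow and 117 to 220 CPM in HFD. The 4 listed of 5 smooth muscle markers summed to 62.8 to 84.4 CPM in chow and 433 to 825 CPM in HFD. The 5 mesothelial markers summed to 18.6 to 30.0 CPM in chow and 39.6 to 124 CPM in HFD. The 8 fibroblast or progenitor markers summed to 403 to 514 CPM in chow and 234 to 403 CPM in HFD. Yet 6 of these 8 had a higher mean in HFD and 2 a lower one, among them the abundant Dcn (291 to 83.6 CPM). The 2 listed of 3 erythroid markers summed to 2.71 to 10.7 CPM in chow and 4.67 to 8.81 CPM in HFD. A single listed marker stood for neutrophils (S100a8, 1 of 4), below 0.5 CPM in each chow library and above that in each HFD library. The part of these cells in the results on single genes was not tested. In RNA pooled over many cells, a change in the number of cells of a type and a change in RNA per cell cannot be told apart.

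The Cdkn1a promoter is shown first, because p53 binding next to this gene is the textbook case of a p53 response. RefSeq (GRCm38.p6) gives Cdkn1a separate start sites, and a search for the p53 consensus element was made in the window from 250 bases before to 50 bases after each start. The element is a pair of 10-base half-sites, taken here without a spacer and on both strands, with the central C and G of each half-site intact. Windows were found for 8 of the 9 listed genes, all but Trp53inp1. With at most 1 mismatch the element was found in the windows of 2 of these genes, Cdkn1a and Ccng1. Over all RefSeq promoter windows 22 of 27025 genes (0.0814%) held such a match, and 106 (0.392%) did with at most 2 mismatches. The Cdkn1a match lay at chr17:29090928-29090947 on the plus strand, beginning 51 bases before the upstream start site, with its mismatch at position 11 counted from the 5′ end of the site. The Ccng1 match lay at chr11:40755462-40755481 on the minus strand, beginning 195 bases before the start site, with its mismatch at position 5. Both are printed 5′ to 3′ on the gene's strand with the site in capitals.
Cdkn1a: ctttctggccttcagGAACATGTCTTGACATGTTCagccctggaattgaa
Ccng1: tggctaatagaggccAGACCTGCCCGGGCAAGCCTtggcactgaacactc

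The downstream start site of Cdkn1a had no such match in its window. The 250 bases before it, at chr17:29093519-29093768, held 2 GC boxes (GGGCGG, or CCGCCC on the other strand) and a TATA element (TATAA), which are shown in capitals. GGGCGG was present on either strand in 35.7% of all promoter windows, and TATAA on the strand of the gene, which was the only strand searched for it, in 17.5%. In the windows of genes tested between the diets, GGGCGG was present in 62.7% and TATAA in 9.14%. A match describes the letters of the window only.
Cdkn1a downstream start: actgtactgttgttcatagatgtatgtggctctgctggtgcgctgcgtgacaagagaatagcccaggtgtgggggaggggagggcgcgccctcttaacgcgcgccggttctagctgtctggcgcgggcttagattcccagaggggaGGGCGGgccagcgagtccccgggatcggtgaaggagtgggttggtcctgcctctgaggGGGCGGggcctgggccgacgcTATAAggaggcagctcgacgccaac

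Among the 9 listed genes, Cdkn1a stood far apart from the rest. Large rises of p53 targets outside this set are given below. Its level was 8.69, 7.26 and 8.88 CPM in chow libraries 1, 2 and 3 and 156, 133 and 163 CPM in HFD libraries 1, 2 and 3. The lowest HFD library was thus many times above the highest chow library, and the libraries within a diet lay close together. The mean was 8.28 ± 0.885 CPM in chow and 151 ± 16.1 CPM in HFD (SD, n = 3 each), a ratio of 18.2. On the log2(CPM + 1) scale, on which all differences are given as HFD minus chow, the difference was 4.03 ± 0.15 (SE). Only 0.172% of the 11643 tested genes had a higher difference, which placed Cdkn1a at rank 21. The chow values rested on 202, 235 and 66 recovered reads and the HFD values on 5274, 4236 and 6429. The row lies at chr17:29090979-29100722 in RefSeq. Markers of other cells were higher in HFD too, and unequally so. Among the 10 macrophage markers the ratio of HFD to chow means ran from 0.161 for Cd14, a fall, to 15.4 for Trem2, with 8.78 for Adgre1 and 8.89 for Lyz2. The part of other cells in the Cdkn1a values was not tested.

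Trp53 itself was low and changed little beside its spread. It measured 9.99, 7.52 and 7.26 CPM in the chow libraries and 13.8, 10.3 and 9.38 CPM in the HFD libraries. The diets overlapped, since chow library 1 was above HFD library 3. The difference was 0.39 ± 0.21 (SE), and 25.7% of the tested genes had a higher one.

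**Figure D1:**
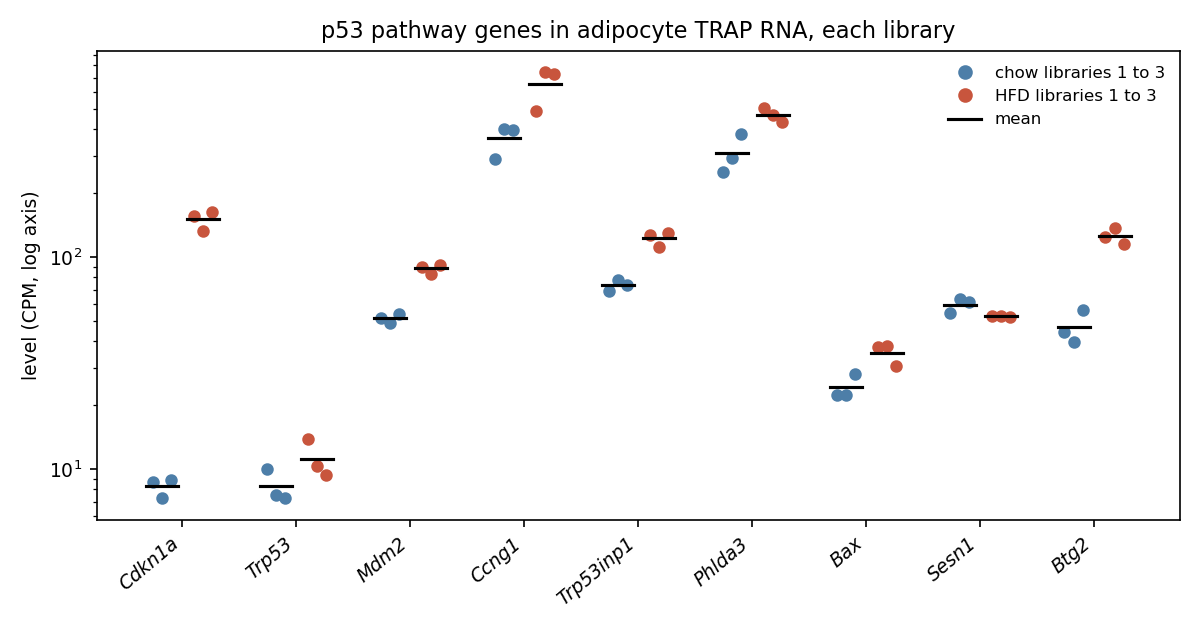
Level in CPM (log axis) of Cdkn1a, Trp53 and the 7 listed p53 targets in each of the 3 chow (blue) and 3 HFD (red) libraries, with the mean of each diet as a black line. Cdkn1a rises from 7.26 to 8.88 CPM in chow to 133 to 163 CPM in HFD, Trp53 overlaps between the diets, and the HFD libraries of Sesn1 lie just below its chow libraries.

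Mdm2 and Ccng1 belong to the feedback on p53. Mdm2 encodes the ligase that marks p53 for degradation and is itself a p53 target. It measured 51.3, 48.5 and 53.8 CPM in the chow libraries and 89.9, 83.3 and 91.1 CPM in the HFD libraries. The diets were well separated, with a difference of 0.77 ± 0.12 (SE). Ccng1, which encodes cyclin G1, an MDM2-associated protein, measured 290, 402 and 396 CPM in the chow libraries and 488, 744 and 729 CPM in the HFD libraries. Its library 1 was the lowest within each diet, and the highest chow library remained below the lowest HFD library. The difference was 0.84 ± 0.20 (SE).

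Btg2, an antiproliferative gene of the BTG/TOB family, had the next highest difference after Cdkn1a. It measured 44.0, 39.7 and 56.1 CPM in the chow libraries and 124, 137 and 115 CPM in the HFD libraries, without overlap. The mean rose from 46.6 ± 8.51 to 126 ± 11.0 CPM (SD, n = 3 each), a ratio of 2.7 and a difference of 1.42 ± 0.15 (SE).

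The genes linked to cell death had smaller differences. Trp53inp1, which encodes a p53-induced nuclear protein active in apoptosis and autophagy, measured 69.1, 77.7 and 73.5 CPM in the chow libraries and 127, 111 and 130 CPM in the HFD libraries, a difference of 0.73 ± 0.12 (SE). Phlda3, which encodes an inhibitor of AKT signalling, measured 251, 294 and 380 CPM in the chow libraries and 505, 468 and 431 CPM in the HFD libraries, a difference of 0.62 ± 0.16 (SE). Its chow libraries were spread more widely (coefficient of variation 21.3%) than its HFD libraries (7.95%). Bax, which encodes a protein that permeabilises the mitochondrial outer membrane, measured 22.2, 22.3 and 28.1 CPM in the chow libraries and 37.5, 37.8 and 30.7 CPM in the HFD libraries, a difference of 0.53 ± 0.16 (SE). HFD library 3 came close to chow library 3 for this gene.

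Sesn1 was the exception in direction. The gene encodes sestrin 1, a stress-induced inhibitor of mTORC1 signalling. It measured 54.2, 63.1 and 61.4 CPM in the chow libraries and 52.7, 52.3 and 52.0 CPM in the HFD libraries. Every HFD library lay below every chow library, by a small margin, and the difference was -0.18 ± 0.12 (SE). Among all tested genes 63.3% had a higher difference.

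Across the 9 listed genes the median difference was 0.73, against -0.004 over all 11643 tested genes. The libraries of the diets did not overlap for 8 of the 9. In 7 of them every HFD library was above every chow library, which was so for 25.2% of all tested genes, and in Sesn1 every HFD library was below, which was so for 25.0%. With limma and Benjamini-Hochberg adjustment over all genes, 7 of the 9 passed 0.05 as higher, where 19.1% of all tested genes did, and 0 passed as lower, where 16.0% did. When 1 library was left out in turn, 5 to 7 of the 9 passed as higher and 0 as lower. Because the genes were selected on this contrast, nothing is read from these counts. The levels of Mdm2, Trp53inp1 and Btg2 followed that of Cdkn1a most closely over the 6 libraries, with Pearson's r of 0.996, 0.976 and 0.975 on the log2(CPM + 1) scale. The r was 0.876 for Bax, 0.857 for Phlda3, 0.844 for Ccng1, 0.703 for Trp53 and -0.816 for Sesn1. These coefficients describe 6 points that fall into 2 diets, so they mostly record the difference between the diets.

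Among all other genes that averaged 10 CPM or more, those whose levels were most like that of Cdkn1a over the 6 libraries included Atp6v0a1, St14, Marc1 and Coro1c, with r between 0.997 and 0.9983. Atp6v0a1, which encodes a subunit of the vacuolar proton pump, rose from 154 ± 6.59 to 367 ± 17.9 CPM. Marc1, which encodes a mitochondrial amidoxime reductase, rose from 5.36 ± 0.994 to 130 ± 26.8 CPM. Coro1c, which encodes an actin-binding coronin, rose from 52.8 ± 2.96 to 110 ± 1.17 CPM (SD, n = 3 each). The sizes of these rises differed, from 1.05 ± 0.11 (SE) for Coro1c to 4.36 ± 0.19 for Marc1. St14, which encodes the membrane protease matriptase, had 0, 4 and 3 recovered reads in chow and 52.7 to 64.9 CPM in HFD.

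Genes next to Cdkn1a were compared, since the long noncoding RNA Trp53cor1 (lincRNA-p21), itself known as a p53 target, is its nearest listed neighbour at a distance of 11853 bases. Trp53cor1 measured 1.73, 2.04 and 1.22 CPM in the chow libraries and 8.75, 9.71 and 8.4 CPM in the HFD libraries. All HFD libraries were above all chow libraries, and the difference was 1.91 ± 0.22 (SE, limma adjusted p = 0.000254). Ppil1, the nearest listed gene on the other side at 150113 bases, did not pass the test (0.05 ± 0.19, adjusted p = 0.867 by limma). When the libraries were scaled to adipocyte markers, Ppil1 passed as higher (0.59). Both listed neighbours of Btg2 were higher in HFD: Fmod by 1.69 ± 0.39 (SE) and Adora1 by 1.41 ± 0.20. Wrap53, which begins 98 bases from Trp53 and is read from the other strand, was lower by the narrowest margin (-0.60 ± 0.21 SE, limma adjusted p = 0.0494) and did not pass under 11 of the 16 alternatives, among them when any single library other than chow library 2 was left out. The library kit does not mark strand. No span of the 9 genes overlapped another RefSeq gene.

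Other p53 targets were mixed. A list of 61 further targets, taken from general knowledge of the pathway, had 48 listed genes, all of which were tested. Of these, 21 rose, 7 fell and 20 did not pass the test (limma, Benjamini-Hochberg over all genes), with a median difference of 0.34 against -0.004 over all genes. Leaving out a library in turn gave 16 to 20 higher and 6 or 7 lower. Over all tested genes 2221 rose (19.1%) and 1863 fell (16.0%, and 1162 genes without HFD library 3), which is the background for each list below. That split depended on the scaling: it was 2513 to 1333 with equal library totals, 1986 to 2293 with quantile normalization, and 5752 to 352 when the libraries were scaled to adipocyte markers. The last of these moved the median of all genes to 0.54 and equal totals moved it to 0.10, so differences are to be read relative to the bulk of genes. Under adipocyte marker scaling the other targets had a median of 0.89, with 31 higher and 2 lower.

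**Figure D2:**
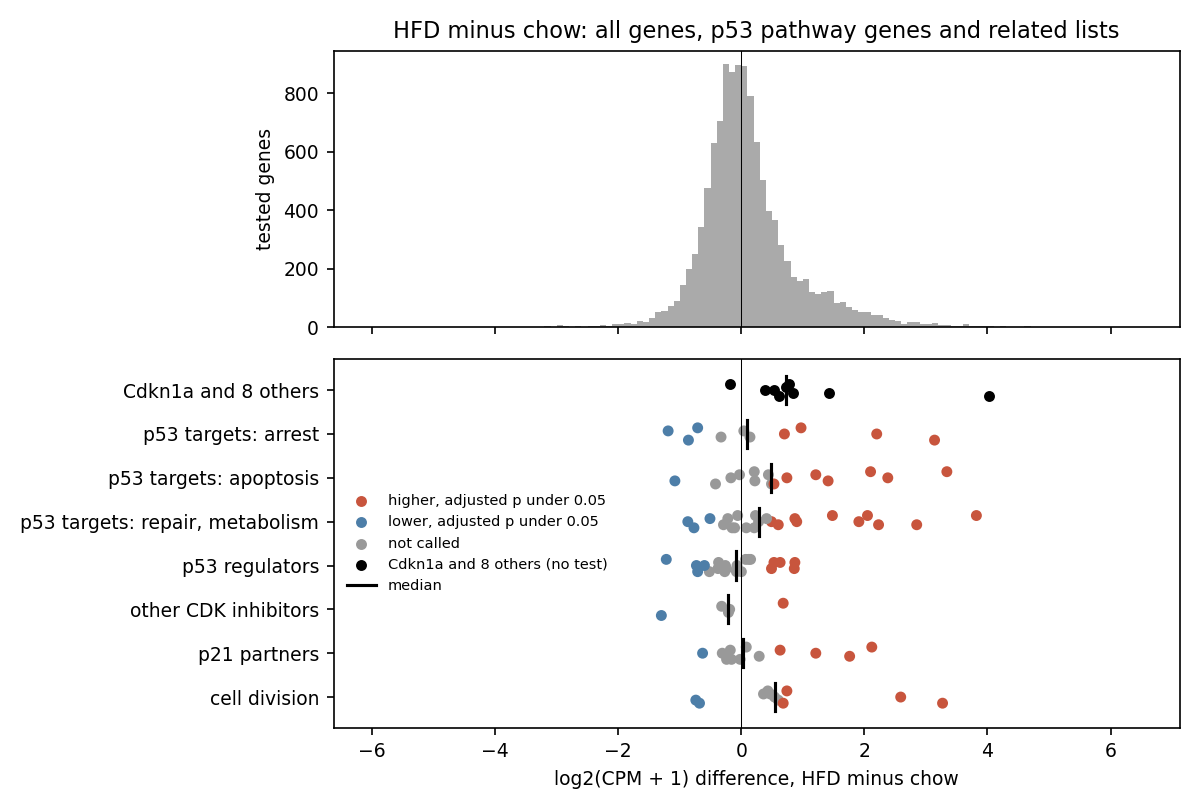
Top: number of tested genes by log2(CPM + 1) difference, HFD minus chow. Bottom: the same difference for each listed gene of 8 groups (red higher and blue lower with adjusted p under 0.05, grey not called, black no test) with the group median as a line; Cdkn1a lies at 4.03, and the medians run from -0.21 for the other CDK inhibitors to 0.73 for Cdkn1a and the 8 others.

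Targets that act in arrest and in feedback included genes that rose and genes that fell. Of 16 fixed genes 10 were tested, of which 4 rose and 3 fell, with a median of 0.09. Gtse1, whose product binds p53 and moves it out of the nucleus during G2, rose from 0.438, 0.624 and 0.277 CPM in chow to 11.9, 11.7 and 11.4 CPM in HFD, a difference of 3.14 ± 0.22 (SE). The polo-like kinase genes Plk2 and Plk3 rose by 2.20 ± 0.22 and 0.97 ± 0.26, the latter from 1.26 ± 0.284 to 3.43 ± 0.663 CPM with a call that was lost without chow library 2 or HFD library 1 or 3 and under quantile normalization (0.29). Zmat3, which encodes an RNA-binding protein, rose by 0.70 ± 0.16. The antiproliferative gene Btg1, a relative of Btg2, fell by 1.19 on the log2 scale (SE 0.21), from 315, 304 and 481 CPM to 147, 133 and 197 CPM. Ccng2, the cyclin G2 gene and a relative of Ccng1, fell by 0.86 (SE 0.15), and the tetraspanin gene Cd82 fell by 0.71 (SE 0.16). Within each of these pairs the relatives thus went in opposite directions at the deposited scaling. Under adipocyte marker scaling the calls of Ccng2 (-0.30) and Cd82 (-0.16) were lost.

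Targets that act in apoptosis included 3 large rises. Of 17 fixed genes 15 were tested, of which 7 rose, 1 fell and 7 did not pass, with a median of 0.49. Eda2r, which encodes a receptor of the TNF receptor family, measured 2.2, 3.84 and 2.69 CPM in the chow libraries and 34.3, 41.6 and 38.9 CPM in the HFD libraries. The separation was wide, with a difference of 3.34 ± 0.20 (SE) and an adjusted p of 8.36e-06 by limma. Trp53i11 rose from 1.03 ± 0.618 to 9.28 ± 0.772 CPM, a difference of 2.38 ± 0.27. Tnfrsf10b, the gene for the mouse TRAIL receptor, rose from 3.2 ± 0.839 to 17 ± 2.89 CPM (SD, n = 3 each), a difference of 2.10 ± 0.22. Siva1, which encodes a proapoptotic adaptor protein, fell from 20.5 ± 4.79 to 9.1 ± 1.65 CPM, a difference of -1.08 ± 0.21. Among genes chosen for mention after their values were seen, the death receptor gene Fas rose by 0.74 ± 0.17. Bbc3, the gene for the BH3-only protein PUMA, did not pass the test, at -0.42 ± 0.22 (limma adjusted p = 0.177), although quantile normalization gave it a lower call at -0.65.

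Targets in DNA repair, metabolism and redox control included Ephx1, with the highest log2(CPM + 1) difference after Cdkn1a among the p53 targets tested. By the ratio of means Gtse1, which was low in chow, stood higher (26.1, against 15.4 for Ephx1 and 18.2 for Cdkn1a). Of 28 fixed genes 23 were tested, of which 10 rose and 3 fell, with a median of 0.28. Ephx1, the gene for microsomal epoxide hydrolase, measured 8.75, 11.6 and 9.99 CPM in the chow libraries and 154, 158 and 153 CPM in the HFD libraries. All HFD libraries were far above all chow libraries, with a difference of 3.82 ± 0.14 (SE, limma adjusted p = 1.04e-06). Ak1, the gene for adenylate kinase 1, rose from 10.9 ± 2.23 to 84.6 ± 16.0 CPM. Xpc, which encodes a sensor of bulky DNA lesions in nucleotide excision repair, fell by 0.77 (SE 0.16). Rap2b, a small GTPase gene, fell by 0.87 (SE 0.18). Rrm2b, which encodes a subunit of p53-inducible ribonucleotide reductase, fell by 0.51 (SE 0.14). The call of Rrm2b was lost without chow library 2 or HFD library 1 or 3. Under adipocyte marker scaling Rrm2b turned to 0.05 and the calls of Xpc (-0.21) and Rap2b (-0.30) were lost. Sesn2, the sestrin relative of Sesn1, did not pass the test, at -0.06 ± 0.16 (limma adjusted p = 0.807).

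**Figure D3:**
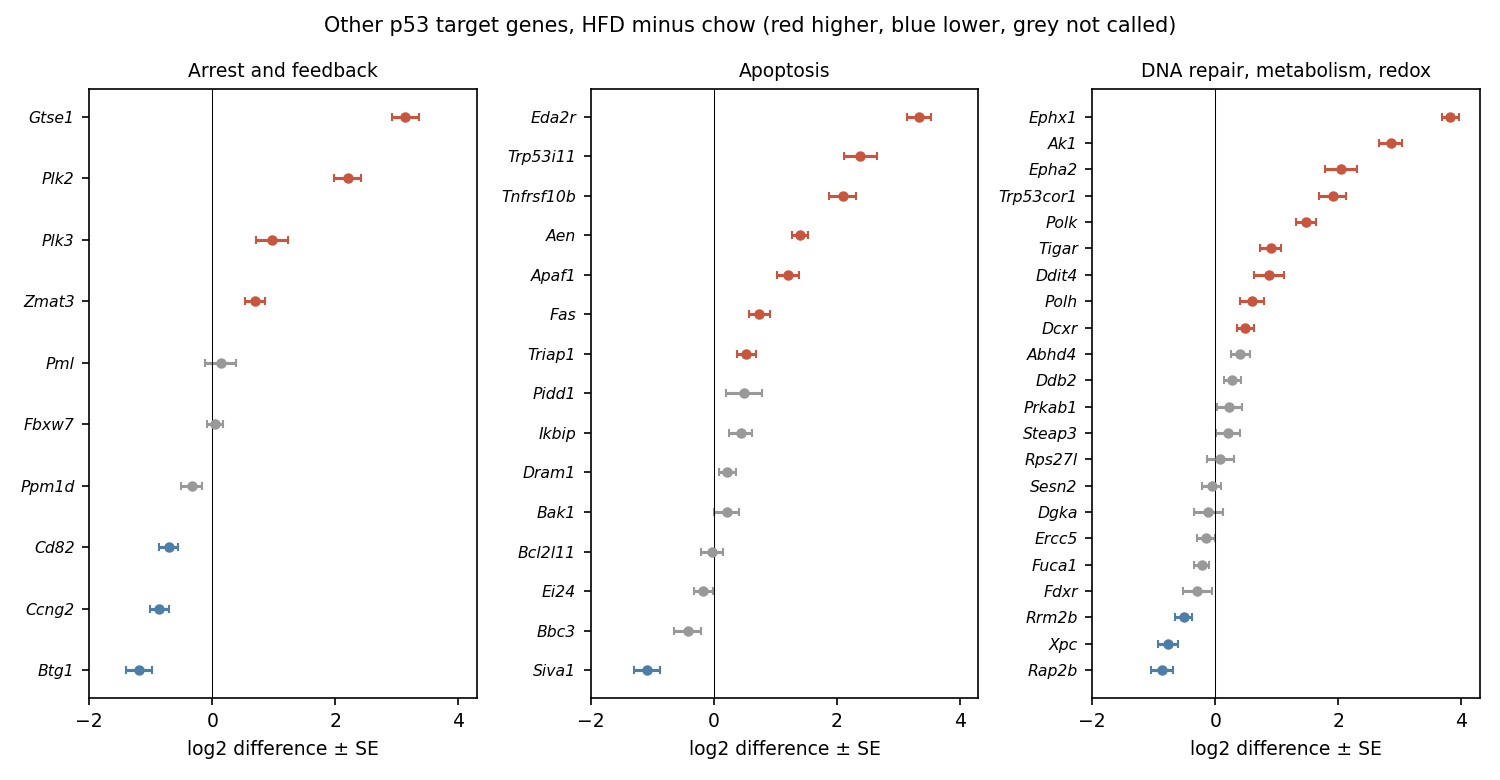
Log2(CPM + 1) difference, HFD minus chow, with its SE from limma for tested p53 targets other than the 9 genes, in the groups arrest and feedback, apoptosis, and DNA repair, metabolism and redox (red higher, blue lower, grey not called). Ephx1 (3.82), Eda2r (3.34) and Gtse1 (3.14) lie at the top of their groups and Btg1 (-1.19), Siva1 (-1.08) and Rap2b (-0.87) at the bottom; under adipocyte marker scaling Rrm2b turns from -0.51 to 0.05.

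The p53 element described above for Cdkn1a and Ccng1 was rare among the tested genes. Of 8643 tested genes with a promoter window, 6 held it with at most 1 mismatch (0.0694%). Besides these 2 genes they were Gtse1, Calhm2, Mthfd1 and Rps27l, all 4 named after the search. Among genes higher in HFD 4 of 1629 (0.246%) held it, among those lower 1 of 1383 (0.0723%), and among those not called 1 of 5632 (0.0178%). These shares rest on very few genes, of which Cdkn1a and Ccng1 were chosen on the same contrast. The Gtse1 site began 1 base before a start site, at chr15:85859945-85859964. That of Rps27l, a ribosomal protein gene, began 117 bases before a start site, at chr9:66946296-66946315. Both sites lay inside the RefSeq spans of their genes, which begin at chr15:85859691 and chr9:66944624. Calhm2, a channel gene, rose from 0.802 to 4.63 CPM in the mean. Mthfd1, a folate enzyme gene, went from 71.2 to 52.1 CPM and passed as lower (-0.44 ± 0.14 SE), a call that was lost when any single library other than chow library 1 was left out and whose sign turned under adipocyte marker scaling (0.13). Rps27l did not pass the test (0.08 ± 0.22 SE, limma adjusted p = 0.804), though it passed as higher under adipocyte marker scaling (0.64). The sites of the p53 targets are printed for comparison with that of Cdkn1a.
Gtse1: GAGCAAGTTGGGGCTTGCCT
Rps27l: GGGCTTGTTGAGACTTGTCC

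Regulators of p53 moved in both directions. Of 26 fixed genes 21 were tested, of which 5 rose, 4 fell and 12 did not pass. Among all tested genes 19.1% rose and 16.0% fell, and nothing is read from these counts. The median was -0.08, which turned to 0.03 with equal library totals and to 0.46 under adipocyte marker scaling. The kinase genes Chek2 and Hipk2, whose products phosphorylate p53, rose by 0.87 ± 0.20 and 0.63 ± 0.16 (SE), the latter not without HFD library 2. Ppp1r13l, the gene for the p53 inhibitor iASPP, rose by 0.86 ± 0.29 at low levels (1.53 ± 0.401 to 3.68 ± 1.25 CPM), and its call was lost without chow library 2 or 3 or HFD library 1 or 3. Trp63, which encodes the p53 family member p63, fell by 1.22 (SE 0.39), and its call was lost without chow library 2 or 3 or HFD library 1 or 2. Trp53bp2, which encodes the p53-binding protein ASPP2, fell by 0.73 (SE 0.19), and the deacetylase gene Sirt1 fell by 0.71 (SE 0.14). Both calls were lost under adipocyte marker scaling, and that of Trp53bp2 without HFD library 2. Mdm4, the gene for the partner of MDM2 in restraining p53, measured 158, 86.2 and 83.3 CPM in the chow libraries and 103, 56.5 and 65.8 CPM in the HFD libraries. Library 1 was the highest within each diet and the diets overlapped. The difference of -0.52 ± 0.28 did not pass the test (limma adjusted p = 0.176).

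Among the other CDK inhibitors, 5 of 7 fixed genes were tested, of which 1 rose, 1 fell and 3 did not pass. The shares that rose and fell over all tested genes were 19.1% and 16.0%. Cdkn1b, the gene for p27 and the closest relative of Cdkn1a in this set together with Cdkn1c, measured 52.7, 59.7 and 72.5 CPM in the chow libraries and 25.5, 22.9 and 24.3 CPM in the HFD libraries. It was lower in every HFD library and fell by 1.30 (SE 0.15, limma adjusted p = 0.00024). Cdkn2b, the gene for p15, rose from 17.2 ± 2.89 to 28.1 ± 4.21 CPM (0.68 ± 0.18 SE), a call lost without HFD library 3. Cdkn1c (-0.19 ± 0.20) and Cdkn2c (-0.21 ± 0.15) did not pass the test, nor did the remaining gene, Cdkn2d (-0.32 ± 0.23). The median of the 5 was -0.21, which became 0.30 under adipocyte marker scaling.

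Partners of p21 were tested in 12 of 15 cases, and 4 rose, 1 fell and 7 did not pass. Over all tested genes 19.1% rose and 16.0% fell. The median of the partners was 0.03, which became -0.05 with quantile normalization. Cdk6, a kinase gene of the G1 phase, rose from 4.11, 4.03 and 3.92 CPM in chow to 26.4, 16.8 and 20.1 CPM in HFD (2.12 ± 0.20 SE). Ccnd1, the cyclin D1 gene, rose from 3.46, 4.76 and 2.69 CPM to 19.7, 15.8 and 9.58 CPM (1.76 ± 0.28). Ccne1, the cyclin E1 gene, rose by 1.21 ± 0.25. Cdk4, the relative of Cdk6, fell by 0.63 (SE 0.15), a call lost without HFD library 3 (-0.56) and under adipocyte marker scaling (-0.07). Pcna, the gene for the replication clamp that p21 binds, did not pass the test (0.08 ± 0.16, limma adjusted p = 0.739), though it did under adipocyte marker scaling (0.62).

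Genes of cell division were higher in part. Of 20 fixed genes 11 were tested, of which 4 rose and 2 fell, beside 19.1% and 16.0% of all tested genes. Their median was 0.54, which became 0.24 with quantile normalization. The proliferation marker Mki67 measured 1.09, 0.993 and 1.09 CPM in the chow libraries and 29.0, 21.1 and 10.6 CPM in the HFD libraries, and the topoisomerase gene Top2a 1.6, 2.28 and 1.49 CPM in the chow libraries and 23.8, 14.6 and 10.9 CPM in the HFD libraries. HFD library 1 was the highest and HFD library 3 the lowest for both. The summed macrophage markers were also highest in HFD library 1, at 440 CPM, against 267 and 307 CPM in HFD libraries 2 and 3, and the part of other cells in these rises was not tested. Plk1, a mitotic kinase gene, rose by 0.74 ± 0.16 (SE). The replication licensing genes Mcm4 and Mcm7 fell by 0.68 (SE 0.16) and 0.74 (SE 0.21), and both calls were lost without HFD library 3 and under adipocyte marker scaling. That of Mcm7 was also lost without chow library 1 or HFD library 2.

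**Figure D4:**
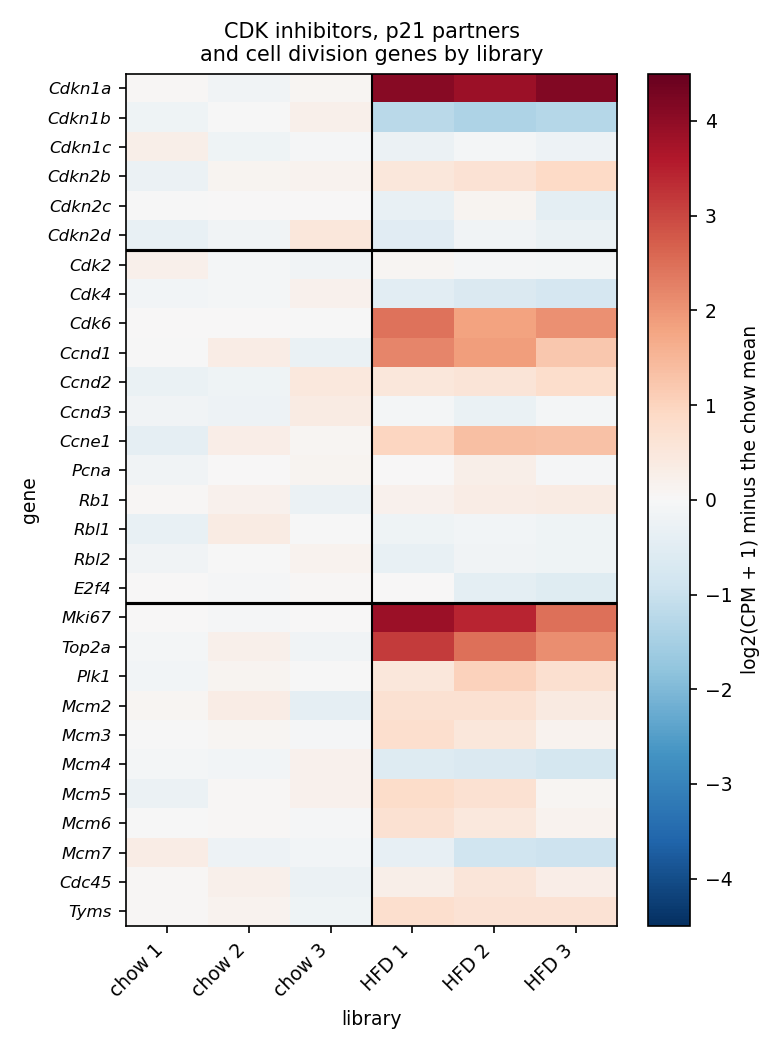
Log2(CPM + 1) minus the chow mean of each gene (colour) in the 3 chow and 3 HFD libraries, for CDK inhibitors, p21 partners and cell division genes, separated by black lines. Cdkn1a, Cdk6, Ccnd1, Mki67 and Top2a are raised in all 3 HFD libraries, Cdkn1b is lowered in all 3 at the deposited scaling, and Mki67 and Top2a are highest in HFD library 1.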

How the data were processed

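Values were deposited by the authors as log2 CPM, in which reads per gene are scaled by library size, with 1 column per library. Per the submitters' processing notes the tools included featureCounts, HISAT2, edgeR and Picard, and the build was mm10. Tool versions were not given in the sources used here. That the values are on a log2 scale relative to an effective library size was read from the values, in which low levels (under 20 reads) lay on whole reads within 0.1 of a read in 100% of cases. These recovered reads show depth and cover counting error only. Each value was turned back into CPM, and log2(CPM + 1) was tested for the 11643 genes that averaged 1 CPM or more, with limma 3.58.1 in R 4.3.3 (mean-variance trend, two-sided, Benjamini-Hochberg over all genes, threshold 0.05). The fold of low genes is understated on this scale. Each SD is over 3 libraries per diet. Each SE is the moderated SE from limma. It combines the spread of the gene's own 3 libraries per diet with the variance of all tested genes. The labels do not say whether libraries came from separate animals, so each p-value reflects only how these libraries vary, and that variation may be technical. The script was tested on simulated data.

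The genes examined, the lists and the alternatives were chosen with earlier results of these data known. Named are the 9 genes, from each list up to 3 risen and 3 fallen genes with the largest change, a fixed set (Mdm4, Cdkn1b, Cdkn1c, Cdkn2c, Zmat3, Sesn2, Atf4, Ddit3, Pcna, Ccnd1, Cdk4), genes most like Cdkn1a (of the 5 with the highest correlation), and nearest neighbours; others are marked. Levels of different genes were not compared, since CPM is not per length. Positions and promoters are from RefSeq GRCm38.p6, the assembly that mm10 denotes. Alternatives were other pseudocounts, filters, scalings, voom weights, a replicate block and leaving out each library. Some results that these rules cover are not reported here. Chromatin samples were not used.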

Additional observations from a re-analysis of the deposited data

How the results depend on the processing

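The log2 difference of Cdkn1a lay between 3.55 and 4.57 over the 16 alternatives, Btg2 between 1.32 and 1.99, Mdm2 between 0.73 and 1.33, Trp53 between 0.18 and 0.90, and Sesn1 between -0.25 and 0.38, the last under adipocyte marker scaling. For Phlda3 it lay between 0.48 and 1.19 and for Bax between 0.47 and 1.08. Without 1 library all genes gave 1683 to 2102 higher and 1162 to 1740 lower, the lowest of each without HFD library 3. Adipocyte marker scaling gave 5752 genes higher and 352 lower overall and 2 lower among the other p53 targets. It turned Cebpg (0.08), Rrm2b (0.05) and Mthfd1 (0.13), which were lower at the deposited scaling. Equal totals ended the calls of Mcm7, Rrm2b, Trp63, Wrap53 and Mthfd1, and quantile normalization those of Chek2, Plk3 and Ppp1r13l. Adipocyte marker scaling sets the median adipocyte marker, which was lower in HFD, to be equal, and so raises every other HFD value.

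Replicate numbers were shared by the diets, and the values did not settle whether these numbers pair the libraries. The deviations of same-numbered libraries correlated at 0.433, 0.232 and 0.086. Each HFD library correlated best with the chow library of its own number. Chow library 3, however, correlated best with HFD library 2 (0.15). With replicate number as a block, 2594 genes were higher and 2245 lower, 23 of the other p53 targets were higher, and Mdm4 (-0.52) passed the test. Chow library 3, with 7430000 effective reads, limits the precision of low genes most.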

Other observations

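Lists that neighbour the p53 pathway were measured in the same fit, in which 19.1% of all tested genes rose and 16.0% fell. Of 13 tested genes of the integrated stress response, 4 rose and 2 fell, with a median difference of 0.20. The transcription factor genes Atf3, Ddit3 and Atf4 rose by 2.54 ± 0.26, 1.56 ± 0.21 and 0.62 ± 0.17 (SE, limma), and the call of Atf4 was lost without chow library 2 or HFD library 2 or 3. The mTORC1 inhibitor gene Ddit4, also a p53 target, rose from 10.3 ± 2.5 to 19.8 ± 4.89 CPM (SD, n = 3 each), and its call was lost without chow library 3 or HFD library 1 or 3. The asparagine synthetase gene Asns fell by 1.10 (SE 0.14) and Cebpg by 0.48 (SE 0.15), although Cebpg was not called without any 1 of the HFD libraries and turned to 0.08 under adipocyte marker scaling. Genes of this response thus did not move one way.

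Of 12 tested genes that respond to SMAD signalling, 8 rose and 0 fell, with a median of 1.02 (all tested genes: 19.1% rose, 16.0% fell). Ctgf, which encodes a matricellular growth factor, measured 1.56, 0.624 and 2.97 CPM in the chow libraries and 14.0, 22.9 and 36.8 CPM in the HFD libraries. Col1a1, a fibrillar collagen gene, measured 177, 109 and 180 CPM in the chow libraries and 1053, 630 and 714 CPM in the HFD libraries. Of 13 tested genes linked to the senescent secretome, to lysosomes or to nuclear changes in senescence, 8 rose and 1 fell, with a median of 1.2. The chemokine gene Ccl2 rose from 0.697, 0.717 and 0.683 CPM to 25.8, 58.9 and 31.1 CPM. Mmp12, which encodes the macrophage elastase, measured 43.4, 24.6 and 29.7 CPM in HFD against at most 0.31 CPM in chow. The chromatin protein gene Hmgb1 fell by 0.95 (SE 0.15), a call lost under adipocyte marker scaling (-0.40). Macrophage markers were also higher in HFD, at 73.4 to 94.6 CPM in chow and 267 to 440 CPM in HFD. The part of macrophages in these rises was not tested.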
